A study of Mus musculus with 12 samples.

Results

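The genes described here are the transcription factors of the epithelial-to-mesenchymal transition, with vimentin and the cadherins: Vim, Snai1, Snai2, Zeb1, Zeb2, Twist1, Twist2, Cdh2, Cdh3 and Prrx1. They were taken by name, 10 of the 53801 genes in the count tables, and not by any measured value, although results of these data were known when they were picked. All were read in each of the 12 libraries, 3 per group, from FVB mice with cutaneous squamous cell carcinoma. TGF-beta-reporter-positive and TGF-beta-reporter-negative tumor cells were basal tumor cells sorted for YFP expressed from the Rosa locus, CD49f and CD29, and then split by an mScarlet reporter of TGF-beta signalling. FceRIa-positive and FceRIa-negative macrophages were CD45+ F4/80+ cells of the same kind of tumor, split by surface Fc epsilon receptor I alpha. The driver of YFP in the tumor cells, the age and number of the animals, and whether libraries came from separate animals are not stated in the sources used here. The p-values therefore measure only the spread between these libraries, which may be technical.

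In an epithelial-to-mesenchymal transition, epithelial cells loosen their cadherin junctions and take up a vimentin cytoskeleton and a motile shape. TGF-beta is a classical inducer: its SMAD proteins act with the SNAIL (Snai1, Snai2), ZEB (Zeb1, Zeb2) and TWIST (Twist1, Twist2) factors, many of which repress the E-cadherin gene Cdh1. In skin carcinoma the transition is often partial, and some of its genes have other uses: Snai2 and the P-cadherin gene Cdh3 are normally transcribed in basal keratinocytes, and vimentin is a main filament of macrophages.

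Total counts were 27951632 to 35088897 in the tumor libraries and 33704786 to 40041144 in the macrophage libraries, so 3 counts corresponded to between 0.0698 and 0.107 CPM (counts scaled to normalized library size). The sorted cells carried the markers of their labels. Itga6 and Itgb1, which encode CD49f and CD29, averaged 1176 and 1250.2 CPM over the 6 tumor libraries, against 82.2 and 610 CPM over the 6 macrophage libraries. Itgb1 was thus far from particular to the tumor cells. Ptprc and Adgre1, which encode CD45 and F4/80, averaged 1204 and 773 CPM over the 6 macrophage libraries, against 1.33 and 0.941 CPM over the 6 tumor libraries. Fcer1a itself, the gene of the receptor chain used to split the macrophages, had 10 counts over the 3 positive libraries and 7 over the 3 negative ones, so its mRNA does not check that split. The mScarlet transcript was not measured here. Tumor replicate 2 stood apart from replicates 1 and 3 in both groups, with leukocyte markers at a summed 141 TPM (scaled per length and depth) in the positive and 132 TPM in the negative library, against 28.5 to 33.2 TPM in the other tumor libraries. Macrophage replicate 3 stood apart in keratinocyte markers, with 317 TPM in the positive and 451 TPM in the negative library, against 2537 to 5128 TPM in the other macrophage libraries.

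In tumor cells the genes were led, per length, by the basal-keratinocyte members and not by the ZEB factors. In reporter-positive tumor cells Cdh3 averaged 162 ± 22.8 TPM, Snai2 86.0 ± 21.9 TPM and Vim 29.7 ± 3.47 TPM (SD, n = 3). Twist1 followed at 5.64 ± 0.955 TPM, Snai1 at 1.54 ± 0.223 TPM, Twist2 at 1.20 ± 0.116 TPM and Prrx1 at 0.342 ± 0.0650 TPM. Zeb2 at 0.112 TPM, Cdh2 at 0.0455 TPM and Zeb1 at 0.0451 TPM closed the order. Each neighbour in it was separate from the next over the 3 libraries, except Cdh2 and Zeb1, whose ranges overlapped. The order in reporter-negative tumor cells was the same down to Zeb2, from Cdh3 at 169 ± 10.9 TPM over Snai2 at 99.1 ± 9.50 TPM and Vim at 17.2 ± 1.30 TPM to Zeb2 at 0.0869 TPM, with Snai1 and Twist2, and Zeb2, Zeb1 and Cdh2, overlapping in range. In macrophages the order was different, led by Vim and Zeb2. Vim averaged 1077 ± 340.4 TPM in FceRIa-positive and 1361 ± 300.1 TPM in FceRIa-negative macrophages, and Zeb2 averaged 57.5 ± 10.995 TPM in positive and 37.0 ± 14.2 TPM in negative macrophages. Zeb1, Snai1, Cdh3 and Snai2 lay between 1.60 and 5.24 TPM as group means in macrophages, and neighbours among them overlapped in every case.

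**Figure D1:**
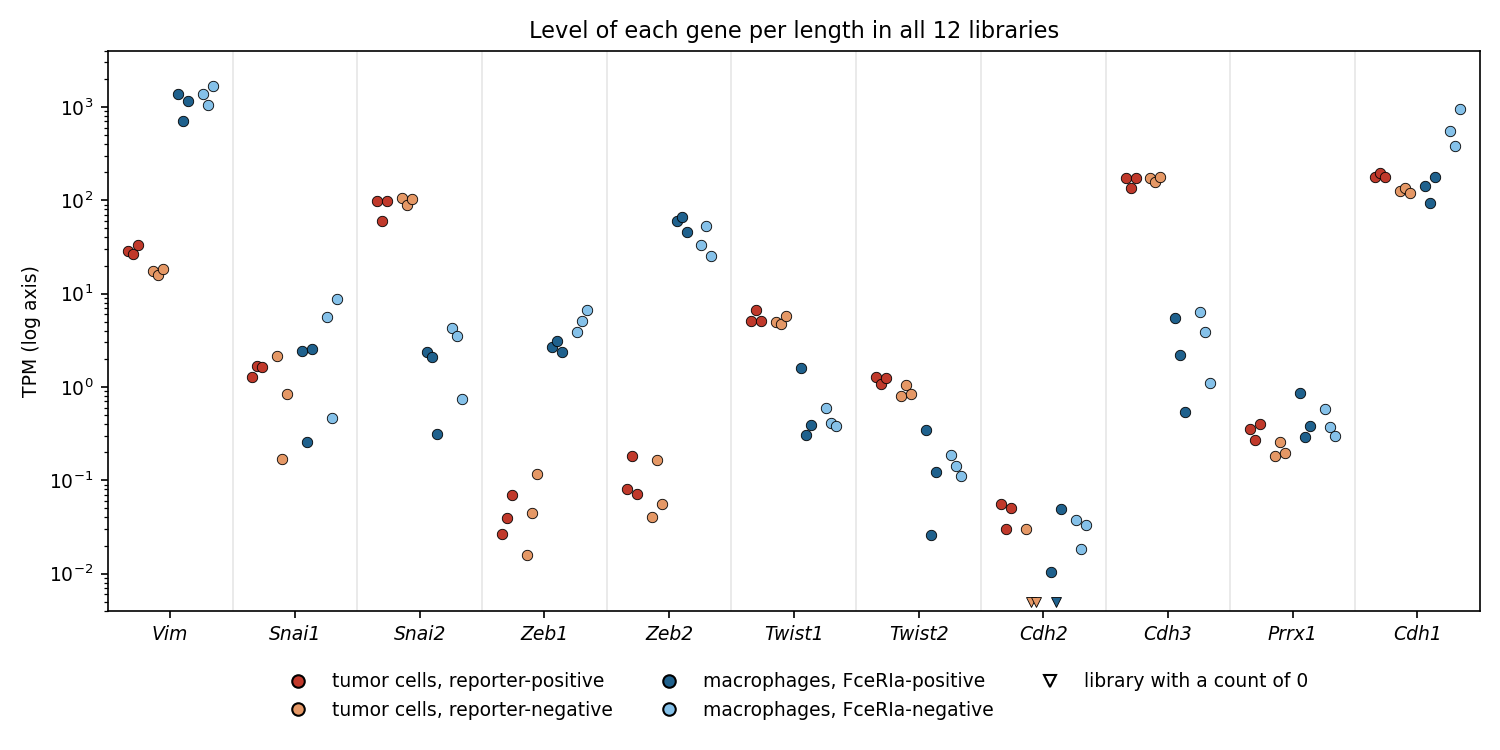
Level of each gene per length (TPM, log axis) in all 12 libraries, with Cdh1 added; each point is 1 library, and triangles mark a count of 0. Cdh3, Snai2, Twist1 and Twist2 lie higher in the tumor cells and Vim, Zeb1 and Zeb2 higher in the macrophages, whereas Snai1, Cdh2 and Prrx1 overlap between the cell types.

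Set side by side, tumor cells and macrophages differed in most members, as they did in most genes. With edgeR's quasi-likelihood test and Benjamini-Hochberg adjustment over 16279 genes, 7 of the 9 testable members differed, 4 higher and 3 lower in tumor cells. Of all genes tested, 85.4% differed between the cell types, 40.6% higher and 44.8% lower in tumor cells, so the number of members called is no more than the background. Cell type, sort and count table cannot be told apart in this comparison, nor can fewer cells of a type and less RNA per cell in these bulk libraries.

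Cdh3 was higher in tumor cells by 5.87 ± 0.54 on the log2 scale (SE; edgeR adjusted p = 1.32e-06) and Snai2 by 5.61 ± 0.43 (edgeR adjusted p = 2.78e-07). Twist1 was higher by 3.37 ± 0.37 (edgeR adjusted p = 5.44e-06) and Twist2 by 2.89 ± 0.39 (edgeR adjusted p = 2.77e-05). Lower in tumor cells were Vim, with a log2 difference of -5.57 ± 0.21 (edgeR adjusted p = 1.08e-09), Zeb1 with -5.99 ± 0.36 (edgeR adjusted p = 3.77e-08) and Zeb2 with -8.65 ± 0.42 (edgeR adjusted p = 6.65e-09). These 7 had groups that did not overlap over 6 libraries each, as did 70.8% of all genes tested, and they kept their direction and their call under each of the 19 alternatives run. Snai1 (log2 difference -1.03 ± 0.73, edgeR adjusted p = 0.205) and Prrx1 (-0.61 ± 0.29, edgeR adjusted p = 0.0691) did not pass the threshold of 0.05. Prrx1 passed it without positive macrophage replicate 2 (-0.75, edgeR adjusted p = 0.0206), without negative macrophage replicate 3 (-0.70, edgeR adjusted p = 0.0482) and with DESeq2 (adjusted p = 0.0488).

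The members called lower in either cell type were read beside markers of the other cell type. Macrophage libraries held Cdh3 at 1.98% and Snai2 at 2.42% of their mean TPM in tumor libraries, while Krt5 stood at 1.64%, Krt14 at 2.69% and Trp63 at 2.42%, all keratinocyte genes. In macrophage replicate 3, where keratinocyte markers were lowest, Cdh3 was 0.540 TPM in the positive and 1.11 TPM in the negative library, against 2.21 to 6.43 TPM in the other macrophage libraries. Snai2 in that replicate was 0.312 TPM in the positive and 0.747 TPM in the negative library, against 2.09 to 4.33 TPM. Twist1 and Twist2 were at 11.3% and 14.9% of their tumor level in macrophages. In tumor libraries, Zeb2 stood at 0.210% of its mean macrophage TPM, with the leukocyte genes Ptprc at 0.0996%, Csf1r at 0.160% and Tyrobp at 0.184%. Zeb1 stood at 1.31% and Vim at 1.92%, above these leukocyte genes. The part of cells or RNA of the other type in these low levels was not tested.

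**Figure D2:**
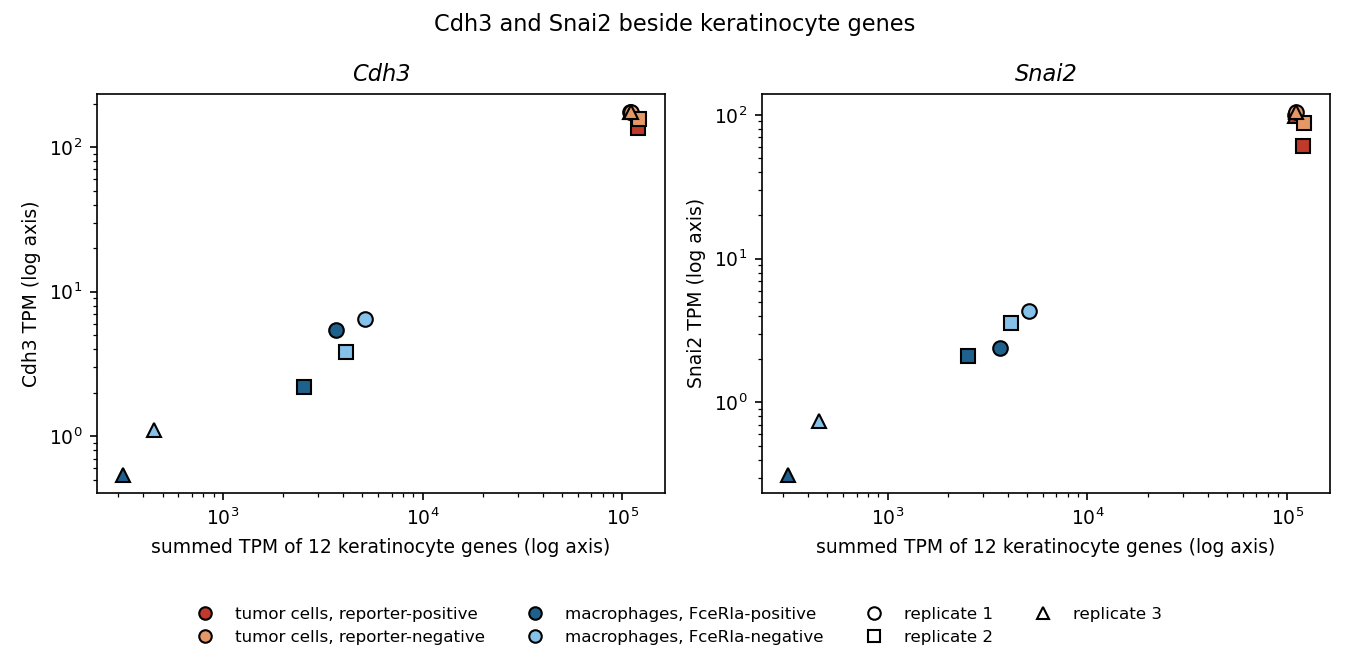
Cdh3 (left) and Snai2 (right) in TPM against the summed TPM of 12 keratinocyte genes, both on log axes, with 1 point per library of the 4 groups. The 2 macrophage libraries of replicate 3, at 317 and 451 summed TPM, hold the least Cdh3 and Snai2, and the 6 tumor libraries sit together at the upper right.

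Between reporter-positive and reporter-negative tumor cells, Vim was the member that changed. Vim rose 1.78-fold, and no other member passed the test. The TWIST factor Twist2 and the homeobox factor Prrx1 were also above every negative library in all 3 positive ones without passing it, while Snai2 and Cdh3, the most abundant members, differed by -0.17 and -0.021 on the log2 scale. Zeb1 and Cdh2 were too scarce to be tested.

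Vimentin is the intermediate filament protein of mesenchymal cells. Vim had 47.9, 51.5 and 55.3 CPM in reporter-positive replicates 1, 2 and 3, against 29.4, 26.9 and 30.7 CPM in reporter-negative replicates 1, 2 and 3. Every positive library was above every negative one, and the lowest positive exceeded the highest negative value by more than the spread within either group. The means were 51.6 ± 3.71 CPM in positive and 29.0 ± 1.90 CPM in negative cells (SD, n = 3 each). The log2 difference was 0.83 ± 0.08 (SE; edgeR's quasi-likelihood test, Benjamini-Hochberg adjusted p = 0.0341). A fit that took the replicate number as a block gave 0.83 ± 0.06 (edgeR adjusted p = 0.00303). Vim was thus 1 of 8 testable members called, against 0.809% of 13604 genes, 0.573% of which were higher; with the block these shares were 18.0% and 10.7%, and 7.34% were lower. At an unadjusted p under 0.05 there were 2 members, Vim and Prrx1, against 19.4% of all genes. Without any single library other than positive replicate 2, the unpaired call was lost, with edgeR adjusted p from 0.0700 to 0.25 and log2 differences from 0.77 to 0.88. The cell types that carry much Vim were read beside it. Of 12 macrophage markers 0 were called without the block by edgeR, 1 was higher at an unadjusted p under 0.05 and with DESeq2, and 3 rose and 1 fell with the block. With both libraries of replicate 2 left out, 4 macrophage markers rose and 1 fell, against 20.4% and 19.2% of all genes. The median log2 difference of the macrophage markers was 0.42, with 10 above 0 and 2 below. They summed to 193, 515 and 185 TPM in positive replicates 1, 2 and 3, against 228, 538 and 217 TPM in negative replicates 1, 2 and 3. The sum was lower in each positive library than in the negative library of its number, whereas most single markers were higher: Csf1r had 2.72, 11.3 and 2.52 CPM in positive replicates 1, 2 and 3, against 1.91, 8.12 and 1.56 CPM in negative replicates 1, 2 and 3. Of 14 leukocyte markers 11 were testable and 0 were called by edgeR with or without the block, by DESeq2 or at an unadjusted p under 0.05. Their median log2 difference was 0.26, with 9 above 0 and 2 below. Of the leukocyte markers 0 rose and 1 fell when both libraries of replicate 2 were left out. Each tumor library held 12 or 13 of the 14, and Cd3e of T cells was at 0 counts in all 6 libraries. The part of these cells in the Vim difference was not tested.

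The promoter of Vim is shown because this gene carried the difference, and those of Snai1 and Prrx1 because they hold the motifs searched for. They are RefSeq windows of 300 bases, 250 before and 50 after the annotated start, on GRCm38.p6, given 5' to 3' on the gene's own strand. Capitals mark CACCTG or CAGGTG, the E-box read by SNAIL and ZEB factors, and CAGAC or GTCTG, a SMAD-binding motif, each searched on both strands; the motifs do not overlap one another. The windows are chr2:13574061-13574360 on the plus strand for Vim, whose gene spans chr2:13573927-13582826 in the GENCODE annotation, chr2:167537945-167538244 on the plus strand for Snai1 and chr1:163313601-163313900 on the minus strand for Prrx1.
Vim: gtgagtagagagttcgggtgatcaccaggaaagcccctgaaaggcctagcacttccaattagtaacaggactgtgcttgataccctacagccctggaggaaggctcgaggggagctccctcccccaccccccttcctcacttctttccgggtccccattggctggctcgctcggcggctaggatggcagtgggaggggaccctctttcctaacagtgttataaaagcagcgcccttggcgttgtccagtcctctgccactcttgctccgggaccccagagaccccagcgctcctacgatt
Snai1: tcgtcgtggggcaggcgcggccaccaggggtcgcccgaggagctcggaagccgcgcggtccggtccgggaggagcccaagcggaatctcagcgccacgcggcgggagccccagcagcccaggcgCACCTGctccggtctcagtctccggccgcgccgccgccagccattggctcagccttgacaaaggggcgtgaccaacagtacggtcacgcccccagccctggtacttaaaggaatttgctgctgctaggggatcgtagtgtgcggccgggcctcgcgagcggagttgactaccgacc
Prrx1: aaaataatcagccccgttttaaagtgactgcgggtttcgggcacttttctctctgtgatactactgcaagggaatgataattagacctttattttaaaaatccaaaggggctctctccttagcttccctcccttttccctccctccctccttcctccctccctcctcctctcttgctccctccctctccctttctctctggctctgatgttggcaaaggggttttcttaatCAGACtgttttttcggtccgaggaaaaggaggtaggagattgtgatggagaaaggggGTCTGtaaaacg
The Vim window holds neither motif. In the Snai1 window CACCTG begins 126 bases before the start, and in the Prrx1 window CAGAC begins 19 bases before it and GTCTG 39 bases after it. Of 32851 such windows over all genes, 20.2% held the E-box and 49.6% the SMAD motif, so these matches describe the sequence and no binding. Windows were found for 6 of the 10 members; that of Twist1 holds CAGAC 9 bases before its start, and that of Twist2 holds neither motif. There was no window for Snai2, Zeb1, Cdh2 or Cdh3.

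Neither SNAIL factor passed the test between the tumor groups with all libraries. Snai2, a repressor of Cdh1 that basal keratinocytes use in migration, had 70.4, 49.9 and 69.0 CPM in positive replicates 1, 2 and 3, against 74.5, 64.3 and 74.7 CPM in negative replicates 1, 2 and 3. Each positive library was below the negative library of its number, but the groups overlapped, and replicate 2 was lowest in both. Snai2 differed by -0.17 ± 0.14 (edgeR adjusted p = 0.577; 0.110 with the block). Without both libraries of replicate 2 it was -0.10 and passed the threshold (edgeR adjusted p = 0.0313 without and 0.0197 with the block). In this setting, chosen after seeing the data, the unblocked fit called 20.4% of all genes higher and 19.2% lower. Snai1, the founding member of the family and a TGF-beta target in many cells, was scarce, with 23, 34 and 26 counts in positive and 43, 3 and 17 counts in negative replicates 1, 2 and 3. The negative libraries spanned both the highest and the lowest of the 6 values. The log2 difference of Snai1 was 0.60 ± 0.71 (edgeR adjusted p = 0.718), it passed the threshold in the blocked fit without replicate 1 (1.82, edgeR adjusted p = 0.0220), and it turned to -0.058 without replicate 2. Dissociation-stress genes, 14 immediate-early and heat-shock genes, were lowest in tumor replicate 2 of both groups, at a summed 4393 TPM in the positive and 3906 TPM in the negative library, against 8938 to 10515 TPM in the others. They also moved with the reporter. Their sum was 10515, 4393 and 10446 TPM in positive replicates 1, 2 and 3, against 9573, 3906 and 8938 TPM in negative replicates 1, 2 and 3, so higher in each positive library than in the negative library of its number. Of 13 testable stress genes 0 were called by edgeR without the block, by DESeq2 or at an unadjusted p under 0.05. With the block 6 rose (Jun, Atf3, Hspa1a, Hspa1b, Dusp1 and Zfp36) and 0 fell, against 10.7% and 7.34% of all genes. Leaving out both libraries of replicate 2, 8 stress genes rose and 2 fell, against 20.4% and 19.2% of all genes. The part of the stress genes in the Snai1 and Vim values was not tested.

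The ZEB factors, zinc-finger repressors of epithelial genes, were near the limit of detection in tumor cells. Zeb2 had 18, 45 and 14 counts in positive replicates 1, 2 and 3, against 10, 36 and 14 counts in negative replicates 1, 2 and 3. Replicate 2 was highest in both groups, as the summed leukocyte markers were, and the groups overlapped. Zeb2 differed by 0.47 ± 0.67 (edgeR adjusted p = 0.766), and it turned to -0.20 without positive replicate 2. Zeb1 had 3, 5 and 7 counts in positive and 2, 5 and 15 counts in negative replicates and was below the filter on low counts. No difference in Zeb1 was detectable at this depth.

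The TWIST factors, basic helix-loop-helix proteins of mesoderm development, were low but measurable. Twist2 had 1.42, 1.38 and 1.39 CPM in positive replicates 1, 2 and 3, against 0.882, 1.21 and 0.936 CPM in negative replicates 1, 2 and 3. The groups did not overlap, though positive and negative replicate 2 lay close, at 42 and 37 counts. The log2 difference was 0.47 ± 0.21 (edgeR adjusted p = 0.291; 0.172 with the block). Twist1 had 2.91, 4.46 and 2.88 CPM in positive replicates 1, 2 and 3, against 2.85, 2.75 and 3.35 CPM in negative replicates 1, 2 and 3. Positive replicate 2 stood above the other libraries, the groups overlapped, and the log2 difference of 0.20 ± 0.22 (edgeR adjusted p = 0.701) turned to -0.051 without that library.

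Prrx1, a paired-type homeobox factor of limb and facial mesenchyme that can induce a transition, had 1.39, 1.21 and 1.53 CPM in positive replicates 1, 2 and 3, against 0.711, 1.01 and 0.766 CPM in negative replicates 1, 2 and 3. These are 37 to 44 counts in positive and 25 to 31 counts in negative libraries, with no overlap. The log2 difference was 0.73 ± 0.23 (edgeR adjusted p = 0.163; 0.0854 with the block). Without both libraries of replicate 2 it was 0.97 and passed the threshold (edgeR adjusted p = 0.00810 without and 0.00439 with the block). Vim, Twist2 and Prrx1 were thus the 3 of 8 testable members whose groups did not overlap, all higher in positive cells; 28.2% of all genes did not overlap, 14.6% being higher. The median log2 difference of the 8 members was 0.47, against 0.00 over all genes tested. Fibroblast markers, whose cells carry Prrx1, Twist2 and Vim, summed to 20.4, 56.5 and 16.5 TPM in positive replicates 1, 2 and 3, against 29.2, 53.9 and 18.4 TPM in negative replicates 1, 2 and 3. Of 10 testable fibroblast markers edgeR called 0 without the block and DESeq2 called 0. At an unadjusted p under 0.05, 1 was lower, and Thy1 fell with the block, against 8.34% and 7.34% of all genes lower by these rules. Without replicate 2, 0 rose and 3 fell, against 20.4% and 19.2% of all genes. The median log2 difference of these markers was 0.095, with 8 above 0 and 2 below. The sum was highest in replicate 2 of both groups, where Prrx1 and Twist2 were the lowest of the positive and the highest of the negative libraries. Fap, which marks activated fibroblasts, was at 0 counts in replicate 1 of both groups, where the other 11 of the 12 fibroblast markers were detected. Pericyte and muscle markers summed to 73.9, 118 and 72.9 TPM in positive replicates 1, 2 and 3, against 56.3, 79.7 and 59.4 TPM in negative replicates 1, 2 and 3. They were higher in each positive library than in the negative library of its number. Of 4 testable ones, with a median log2 difference of 0.31, edgeR called 0 without the block, 1 was higher at an unadjusted p under 0.05 and with DESeq2, Notch3 rose with the block, and 3 rose without replicate 2. Of all genes 11.1% were higher at that p, 5.2% with DESeq2, 10.7% with the block and 20.4% without replicate 2. Melanocyte markers, with 3 to 5 of 7 detected, summed to 1.73 to 2.37 TPM in positive and 0.894 to 1.63 TPM in negative libraries, and 0 of 2 testable ones were called by edgeR with or without the block, by DESeq2 or at an unadjusted p under 0.05. Of these 2 markers 1 rose and 0 fell without replicate 2. The part of these cells in the Prrx1, Twist2 and Vim values was not tested.

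The cadherins are the junction proteins whose exchange the term cadherin switch describes. Cdh3, the P-cadherin of basal keratinocytes, had 269, 241 and 267 CPM in positive replicates 1, 2 and 3, against 268, 247 and 273 CPM in negative replicates 1, 2 and 3. The groups overlapped almost entirely, and the log2 difference was -0.021 ± 0.074 (edgeR adjusted p = 0.915). Of 12 keratinocyte markers 1 rose and 0 fell in edgeR's fit without the block, against 0.573% and 0.235% of all genes. With the block 4 were called, 3 higher and 1 lower (Krt15, Krt17, Dsg3 and Perp), against 10.7% and 7.34% of all genes. Without replicate 2, 5 rose and 3 fell, against 20.4% and 19.2% of all genes. Cdh2, the N-cadherin of neural and mesenchymal cells, had 5, 3 and 4 counts in positive and 3, 0 and 0 counts in negative replicates 1, 2 and 3. That is 12 counts against 3 in all, below the filter, and a count of 0 allows up to 0.0982 CPM in negative replicate 2 and up to 0.0851 CPM in negative replicate 3. Cdh2 therefore had at most 5 counts in a library, where Cdh3 had at least 7358.

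**Figure D3:**
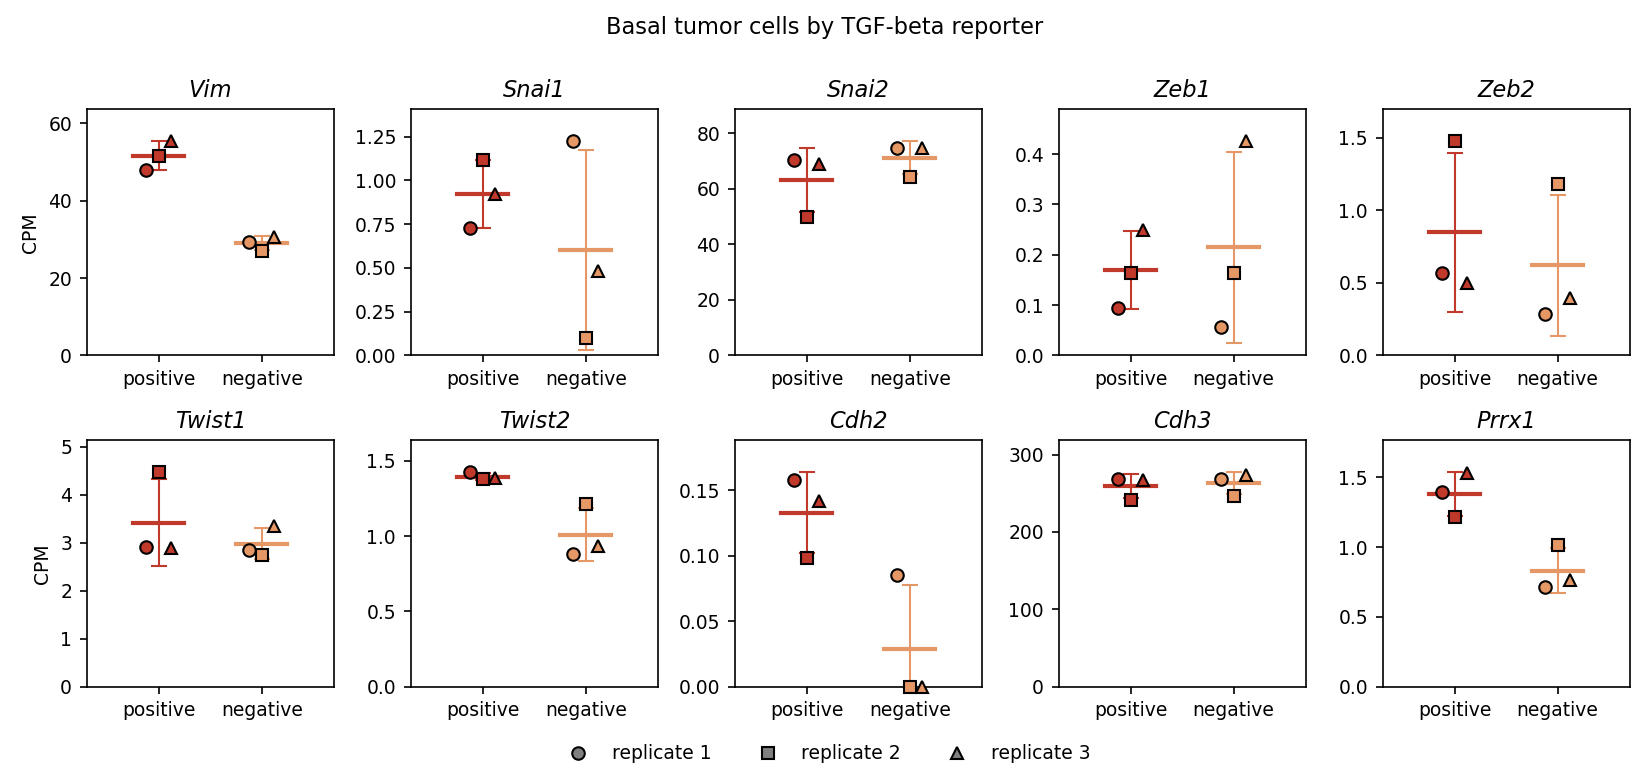
CPM of the 10 genes in TGF-beta-reporter-positive (left) and TGF-beta-reporter-negative (right) tumor cells, on linear axes from 0. Points are libraries with a symbol per replicate number, and bars give the mean and SD of 3. Vim, Twist2 and Prrx1 separate the groups among the tested genes, and replicate 2 (squares) is the highest library of its group for Zeb2 and the lowest for Snai2.

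Cdh1, the E-cadherin gene that SNAIL and ZEB factors repress, is not among the 10 genes but sets the scale for Cdh3. It had 282, 367 and 280 CPM in positive replicates 1, 2 and 3, against 202, 226 and 197 CPM in negative replicates 1, 2 and 3. All positive libraries were higher, with a log2 difference of 0.57 ± 0.12 that missed the threshold without the block (edgeR adjusted p = 0.0881) and passed it with the block (edgeR adjusted p = 0.00580). The ratio of Cdh3 to Cdh1 per length within a library was 0.996, 0.686 and 0.995 in positive replicates 1, 2 and 3, against 1.38, 1.14 and 1.45 in negative replicates 1, 2 and 3. It was below 1 in each positive and above 1 in each negative library, at 0.892 ± 0.178 against 1.33 ± 0.163 (SD, n = 3 each). The difference of log2 ratios was -0.58, with a two-sided exact permutation p of 0.1, the smallest that 20 splits of 3 against 3 allow, and a paired exact permutation p of 0.25, also the smallest possible. Leaving out each library in turn gave -0.69 to -0.41.

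**Figure D4:**
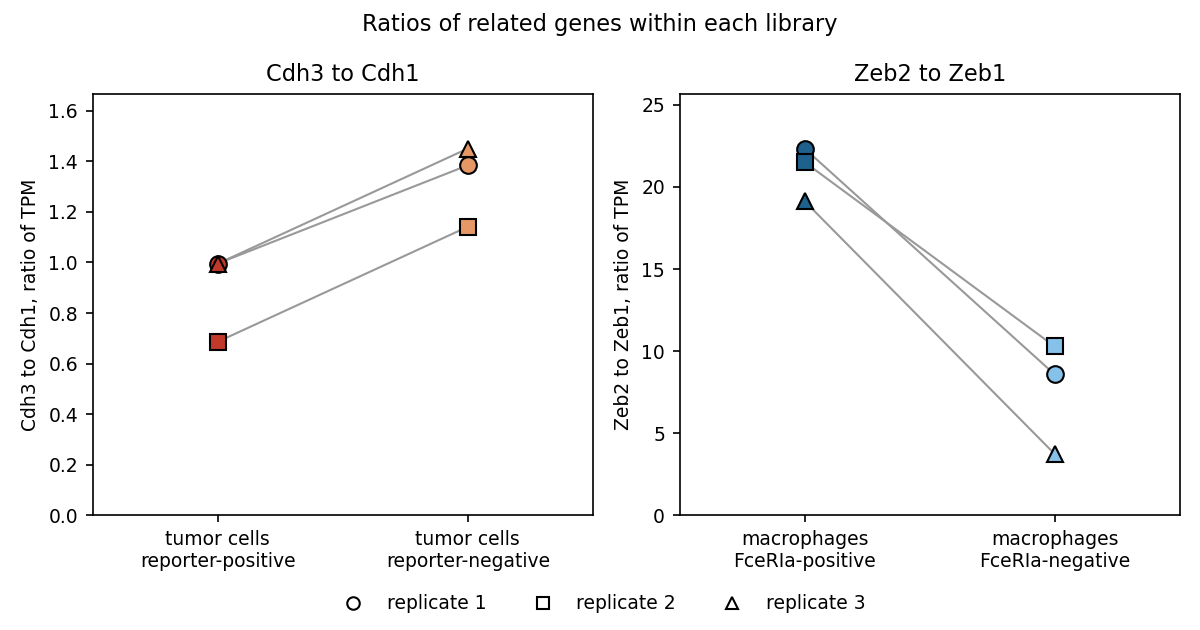
Ratios of TPM within each library, on linear axes from 0, for Cdh3 to Cdh1 in tumor cells (left) and Zeb2 to Zeb1 in macrophages (right), with lines joining libraries of the same replicate number. Cdh3 to Cdh1 is 0.686 to 0.996 in reporter-positive and 1.14 to 1.45 in reporter-negative tumor cells, and Zeb2 to Zeb1 is 19.1 to 22.3 in FceRIa-positive and 3.74 to 10.3 in FceRIa-negative macrophages.

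Between FceRIa-positive and FceRIa-negative macrophages, the paired fit moved the ZEB factors in opposite directions: Zeb2 rose and Zeb1 fell in positive cells. Snai1 and Snai2 fell in the same fit, and Vim, Cdh3 and Prrx1 did not pass it. In edgeR's fit without the block none of these genes passed the threshold, and with DESeq2 and no block Zeb1 alone did. Twist1, Twist2 and Cdh2 were below the filter on low counts.

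In the unblocked fit, edgeR's quasi-likelihood test called 0 of 14988 genes (0.0%), and so 0 of the 7 testable members. At an unadjusted p under 0.05 there were 2345 genes (15.6%) and 2 members, Zeb1 and Zeb2, and DESeq2 called 662 genes higher (4.42%) and 609 lower (4.06%) in positive macrophages, Zeb1 among the lower. With the replicate number as a block 4 of 7 members were called, 1 higher and 3 lower, against 21.0% of all genes, 10.8% higher and 10.2% lower. The groups of 2 of the 7 members, Zeb2 and Zeb1, did not overlap, against 21.4% of all genes, 11.6% higher and 9.78% lower.

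Zeb2, at chr2:44983632-45117395 on the minus strand of GRCm38 in the GENCODE annotation, maintains the identity of resident macrophages in mice. It had 396, 440 and 338 CPM in positive replicates 1, 2 and 3, against 222, 329 and 167 CPM in negative replicates 1, 2 and 3. All positive libraries exceeded all negative ones, though positive replicate 3 and negative replicate 2 lay close. The means were 391 ± 51.1 CPM in positive and 239 ± 82.1 CPM in negative macrophages (SD, n = 3 each). Zeb2 differed by 0.71 ± 0.25 on the log2 scale without the block (edgeR adjusted p = 0.232) and 0.76 ± 0.12 with it (edgeR adjusted p = 0.00348). Without replicate 1 the blocked call was lost (0.71, edgeR adjusted p = 0.0591). The RefSeq promoter window of Zeb2 farthest upstream, one of 4, is shown because this gene had the lowest p of the 10 in the blocked macrophage fit, and it holds neither of the motifs above. It is chr2:45117393-45117692 on the minus strand of GRCm38.p6, given 5' to 3' on the gene's strand, and has no capitals.
Zeb2: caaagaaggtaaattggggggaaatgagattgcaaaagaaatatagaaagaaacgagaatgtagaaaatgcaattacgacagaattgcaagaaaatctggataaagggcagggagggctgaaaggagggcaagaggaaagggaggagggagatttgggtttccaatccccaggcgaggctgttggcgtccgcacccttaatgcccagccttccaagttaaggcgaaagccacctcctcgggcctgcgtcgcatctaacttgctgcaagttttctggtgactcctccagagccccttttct
The antisense transcript Zeb2os, which overlaps Zeb2, had 243 to 446 counts in the macrophage libraries, against 5646 to 16131 counts of Zeb2. No source used here states the strand setting of the counting, so reads of overlapping genes cannot be told apart.

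Zeb1 had 9.12, 10.5 and 9.10 CPM in positive replicates 1, 2 and 3, against 13.3, 16.4 and 23.0 CPM in negative replicates 1, 2 and 3. The positive libraries were tight and all below the negative ones. Zeb1 differed by -0.87 ± 0.22 on the log2 scale without the block (edgeR adjusted p = 0.109) and -0.84 ± 0.16 with it (edgeR adjusted p = 0.00782), and the blocked call held without each replicate number in turn. DESeq2 without the block gave -0.88 (adjusted p = 0.00774). Within a library Zeb2 exceeded Zeb1 per length by 22.3, 21.5 and 19.1 times in positive replicates 1, 2 and 3, against 8.58, 10.3 and 3.74 times in negative replicates 1, 2 and 3. The ratio was higher in every positive library than in any negative one.

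Snai1 had 47, 5 and 52 counts in positive replicates 1, 2 and 3, against 121, 10 and 159 counts in negative replicates 1, 2 and 3. It was lower in each positive library than in the negative library of its number, and replicate 2 was lowest in both groups, so the groups overlapped. The blocked log2 difference was -1.35 ± 0.25 (edgeR adjusted p = 0.00696), against -1.42 ± 1.11 without the block (edgeR adjusted p = 0.658), and without replicate 1 the blocked call was lost (edgeR adjusted p = 0.0682). Dissociation-stress genes were lowest in macrophage replicate 2 too, at 2283 TPM in the positive and 2477 TPM in the negative library, against 6360 to 9405 TPM in the others. Of 13 testable stress genes 0 were called by edgeR without the block, by DESeq2 or at an unadjusted p under 0.05. With the block 4 fell (Egr1, Ier2, Hspa1a and Hspa1b), the direction of Snai1, and 0 rose, against 10.2% and 10.8% of all genes. The part of the stress genes was not tested. Snai2 had 58, 51 and 8 counts in positive replicates 1, 2 and 3, against 117, 96 and 17 counts in negative replicates 1, 2 and 3. Its blocked log2 difference was -0.83 ± 0.23 (edgeR adjusted p = 0.0386; 0.760 without the block), and the call held without replicate 3 alone (edgeR adjusted p = 0.0344) but not without replicate 1 (0.199) or replicate 2 (0.102), and it was lost with DESeq2 and the block (adjusted p = 0.135). Beside it, 10 of the 12 keratinocyte markers fell in the blocked fit, against 10.2% of all genes. The 12 markers summed to 3667, 2537 and 317 TPM in positive against 5128, 4130 and 451 TPM in negative replicates 1, 2 and 3.

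Vim had 2164, 1106 and 2028 CPM in positive replicates 1, 2 and 3, against 2170, 1570 and 2626 CPM in negative replicates 1, 2 and 3. Replicate 2 was lowest in both groups and the groups overlapped, with a log2 difference of -0.26 ± 0.30 (edgeR adjusted p = 0.806; 0.141 with the block). With DESeq2 and the block Vim was called lower (-0.30, adjusted p = 0.0437). Cdh3 ranged from 0.884 to 7.93 CPM in positive and from 1.63 to 9.47 CPM in negative macrophages (log2 difference -0.45 ± 0.85, edgeR adjusted p = 0.899; 0.0582 with the block). Prrx1 ranged from 1.06 to 3.18 CPM in positive and from 1.10 to 2.16 CPM in negative macrophages (0.35 ± 0.49, edgeR adjusted p = 0.852; 0.472 with the block). Twist1 had 31, 6 and 8 against 13, 9 and 7 counts, Twist2 had 13, 1 and 5 against 8, 6 and 4 counts, and Cdh2 had 1, 0 and 5 against 4, 2 and 3 counts in positive against negative replicates 1, 2 and 3. The 0 for Cdh2 allows up to 0.0819 CPM in positive replicate 2. The groups of each of these genes overlapped.

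**Figure D5:**
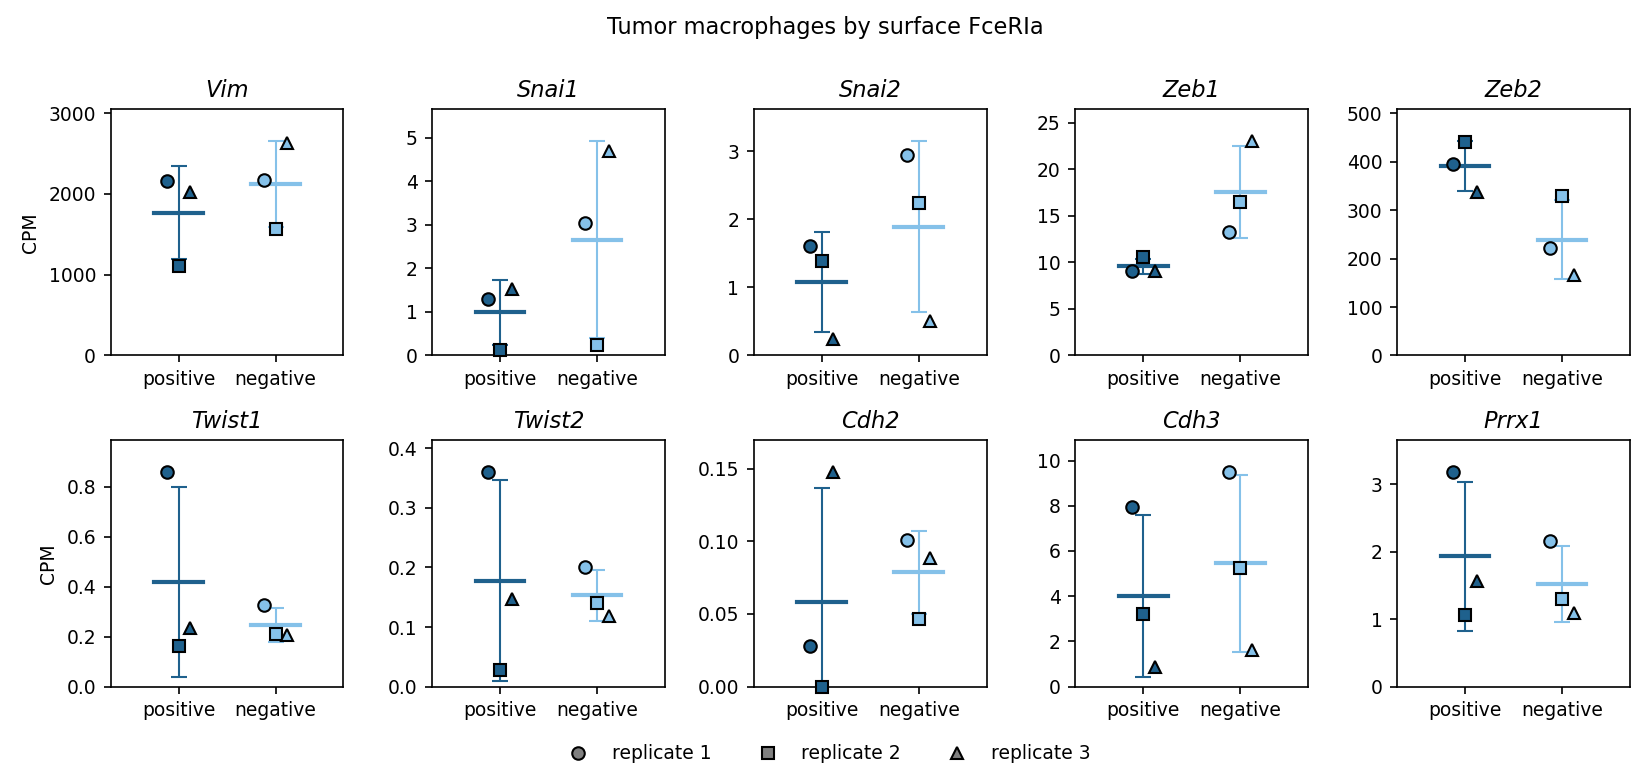
CPM of the 10 genes in FceRIa-positive (left) and FceRIa-negative (right) macrophages, on linear axes from 0, with a symbol per replicate number and bars for the mean and SD of 3 libraries. Zeb2 and Zeb1 separate the groups in opposite directions, and replicate 3 (triangles) is the lowest library of its group for Snai2 and Cdh3.

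Other measured markers moved with the macrophage split. In the blocked fit 10 of 12 macrophage markers rose (7 with DESeq2 and no block), against 10.8% (4.42%) of all genes. The macrophage markers summed to 91878 to 95696 TPM in positive against 42657 to 61852 TPM in negative libraries. Of 9 testable dendritic and Langerhans cell markers 6 fell in the blocked fit, against 10.2% of all genes. These markers summed to 557 to 738 TPM in positive against 1127 to 2063 TPM in negative libraries, and none of the 10 was at 0 in any macrophage library. Cdh1, which Langerhans cells carry, was 220.8 ± 83.3 CPM in positive and 949 ± 463 CPM in negative macrophages (log2 difference -2.10 ± 0.43, edgeR adjusted p = 0.0703; 5.71e-05 with the block). The part of these cells in the ZEB, SNAIL and Cdh1 values was not tested.

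The other genes of the pathway were taken from 6 lists, and counts are read against the share of all genes called. In reporter-positive tumor cells the epithelial list, of junction genes and epithelial regulators, was the one with calls in the unblocked edgeR fit. Of its 29 testable genes 3 rose and 0 fell, against 0.573% and 0.235% of all genes. With the block 18 rose and 0 fell, against 10.7% and 7.34%, DESeq2 called 15, all higher, against 5.2% higher and 3.32% lower, and 16 were higher at an unadjusted p under 0.05, against 11.1% higher and 8.34% lower; its median log2 difference was 0.42, against 0.00 over all genes. Elf3, an epithelial ETS factor, averaged 27.0 ± 0.892 CPM in positive and 13.5 ± 1.55 CPM in negative cells (log2 difference 0.99, edgeR adjusted p = 0.0367). Dsp, which encodes desmoplakin of desmosomes, averaged 3719 ± 372 CPM in positive and 2406 ± 66.3 CPM in negative cells (0.63, edgeR adjusted p = 0.0475). Ocln, which encodes occludin of tight junctions, averaged 1.32 ± 0.0928 CPM in positive and 0.393 ± 0.102 CPM in negative cells (1.73, edgeR adjusted p = 0.04995). Like that of Vim, these calls rest on the full set of libraries: edgeR called 0 genes higher without positive replicate 3, negative replicate 1 or negative replicate 3, 1 gene without positive replicate 1 and 8 genes without negative replicate 2. Without both libraries of replicate 2, 21 of the epithelial genes rose and 0 fell, against 20.4% of all genes higher and 19.2% lower.

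The mesenchymal list, of matrix, adhesion and contractile genes, had 0 of 30 genes called by edgeR without the block, with 4 at an unadjusted p under 0.05 and the same number called by DESeq2, all higher, against 11.1% and 5.2% of all genes higher by these rules. With the block 7 rose and 0 fell, against 10.7% and 7.34% of all genes: Myl9, Itgav, Cd44, Mmp9, Mmp10, Mmp13 and Axl. The hyaluronan receptor gene Cd44 averaged 691 ± 16.3 CPM in positive and 535 ± 9.21 CPM in negative cells (log2 difference 0.37, edgeR adjusted p = 0.0527; 0.00914 with the block), and the receptor kinase gene Axl averaged 106 ± 10.5 CPM in positive and 78.3 ± 8.76 CPM in negative cells (0.44, edgeR adjusted p = 0.108; 0.00557 with the block). The list's median log2 difference was 0.14. Without replicate 2, 13 of its genes rose and 5 fell, against 20.4% and 19.2% of all genes, so the number that fell is near the background.

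Of the remaining lists, edgeR without the block called 0 genes in tumor cells. The shares of all genes were 19.4% at an unadjusted p under 0.05, 5.2% higher and 3.32% lower with DESeq2, and 10.7% higher and 7.34% lower with the block. The other transition factors had 16 testable genes, 2 of them at an unadjusted p under 0.05 (Prrx2 and Foxc2, both higher) and 0 called by DESeq2, and Sox9 and Sox11 rose with the block. The other cadherins and catenins had 10 testable genes, 4 at an unadjusted p under 0.05 and 3 called by DESeq2; Cdh1 and the plakoglobin gene Jup rose with the block and Ctnnal1 fell. The other intermediate filament genes had 8 testable genes, 1 at an unadjusted p under 0.05 and 1 called by DESeq2, both lower; with the block Eppk1 rose and the lamin genes Lmnb1 and Lmnb2 fell. The basic helix-loop-helix partners of TWIST and their ID inhibitors had 7 testable genes, and 0 were called by edgeR with or without the block or by DESeq2, or had an unadjusted p under 0.05. Without both libraries of replicate 2, 0 of these 7 rose and 4 fell, against 20.4% and 19.2% of all genes. In that setting 5 of the other transition factors rose and 2 fell. Of the cadherins and catenins 5 rose and 3 fell, and of the intermediate filament genes 2 rose and 3 fell.

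In macrophages edgeR without the block called 0 genes of any list, as of all genes. In the blocked fit 14 of 25 testable epithelial genes fell and 0 rose, against 10.2% and 10.8% of all genes, with Epcam at 31.1 ± 15.5 CPM in positive and 306 ± 196 CPM in negative macrophages (log2 difference -3.29; edgeR adjusted p = 1.96e-05 with the block and 0.0591 without). At an unadjusted p under 0.05 there were 9 such genes, against 8.29% of all genes higher and 7.35% lower, and DESeq2 called 7, all lower. Epcam is also one of the dendritic and Langerhans cell markers. Among the other transition factors Tcf4, Sox4 and Ets1 rose and Klf8 fell with the block. Tcf4, a helix-loop-helix partner of TWIST, averaged 75.5 ± 8.25 CPM in positive and 44.5 ± 8.57 CPM in negative macrophages (0.76; edgeR adjusted p = 0.000717 with the block and 0.0810 without). Among these partners and inhibitors Tcf12 also rose with the block, and Id1 and Id2 fell. Of 29 testable mesenchymal genes 4 rose and 4 fell with the block, of 11 cadherins and catenins 1 rose and 4 fell, and of 8 intermediate filament genes 0 rose and 2 fell. The unblocked counts at an unadjusted p under 0.05 were 3 of 12 other transition factors, 4 mesenchymal genes, 5 cadherins and catenins, 1 intermediate filament gene and 2 of 6 helix-loop-helix genes, and DESeq2 called 3, 3, 4, 0 and 1 genes in that order. Shares of all genes were 15.6% at an unadjusted p under 0.05 and 4.42% higher and 4.06% lower with DESeq2. Without both libraries of replicate 2 the unblocked fit called 0 genes of each list, as it called 0 of all 14987 genes tested. Other cell-type markers called with the block were Cd52, Coro1a and Fcer1g of leukocytes (1 higher, 2 lower of 12), Pecam1 of endothelium (higher), Mitf of melanocytes (higher), Cspg4 and Myh11 of pericytes and muscle (1 higher, 1 lower of 6) and Thy1 and Fap of fibroblasts (1 higher, 1 lower of 12).

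For a description of likeness, genes with a mean of at least 10 CPM were ranked by Pearson's r of log2 CPM with Vim over the 6 tumor libraries. The nearest were Rbms2 (r = 0.998), Cd80 (r = 0.997) and Sgpl1 (r = 0.995), and 142 of 8541 genes reached 0.95. Of these 3 genes Cd80 was itself called higher in positive cells (log2 difference 0.63, edgeR adjusted p = 0.0341). Over the 6 macrophage libraries the genes nearest to Zeb2 were Snx13, Tanc2 and Rgmb, each with r = 0.998, and 201 of 8810 genes reached 0.95. The libraries share their sort and replicate number, which such values cannot separate from the genes.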

How the data were processed

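Sorted tumor cells and macrophages of mouse skin carcinomas were lysed in Trizol, and 100 ng of their RNA went into each TruSeq v2 library, per the labels' protocols. In the deposited tables stand the authors' raw read counts for each gene. The submitters' processing notes name FastQC, STAR and mm10 (GRCm38). For the counting tool, the annotation release and the strand setting, nothing was given in the sources used here. Neither the earlier data that the series text mentions nor 4 columns of counts of no sample here were used. The 10 genes and all gene lists were chosen with earlier results of these data known, so no list is independent evidence.

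Each table has 53801 gene rows, 0 of them naming no gene. The test was edgeR 4.0.16's quasi-likelihood test in R 4.3.3 with limma 3.58.1, after filterByExpr and TMM scaling, with Benjamini-Hochberg adjustment over all genes tested and a threshold of 0.05, on 6 libraries for each split and on 12 libraries in 4 groups for the cell types. The filter left 13604, 14988 and 16279 genes, and 8, 7 and 9 of the 10 genes. Log2 differences are positive minus negative and tumor minus macrophage, with SE. CPM used normalized library sizes. TPM was computed from counts and GENCODE M21 exon lengths, in which 53706 gene IDs were found, and was used to compare genes or cell types. On simulated counts with these library sizes the unblocked fit called 92.9% of genes changed by 1 log2 unit in the tumor comparison, 88.8% in the macrophages and 92.9% between cell types. The simulation had no replicate effect and a smaller spread between libraries than the data. The biological coefficient of variation estimated without the block was 0.188, 0.302 and 0.257 in that order. The simulated shares therefore check the fit and do not give its power on these data.

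The labels do not say what a replicate number marks. In macrophages the count columns of replicate 2 carry the word New in both groups. Those of replicates 1 and 3 do not. What New stands for is not stated in the sources used here, and its part in the replicate 2 values was not tested. Deviations from group means correlated between same-numbered libraries at 0.449, 0.703 and 0.488 in tumor cells and at 0.688, 0.787 and 0.734 in macrophages. All exceeded 0.1, so the number was treated as pairing; the fit with it as a block is given beside each result whose call it changes. In tumor cells numbers 1 and 3 correlated as well with each other (0.483 and 0.488) as with themselves.

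Named were the 10 genes, the genes of the sorts, the 3 genes most like Vim and Zeb2, and, for each list, the 4 or fewer genes of lowest p, not all of which are described. Cdh1, Krt5, Krt14, Trp63, Csf1r, Tyrobp, Fap, Cd3e, Zeb2os and the further genes called with the block were named after their values were seen. The alternatives tried were the block, DESeq2 1.42.0, its size factors, upper-quartile factors, no filter or a stricter filter, sums of libraries per number, and each library left out. Chosen after seeing the data were both libraries of replicate 2 left out, blocked fits without each number and DESeq2 with the block. The floors (3 counts) cover counting error only, whereas SD and SE include the spread between libraries. Endothelial markers were also read in the tumor comparison, where edgeR called 0 of 8 testable genes with or without the block and DESeq2 0. At an unadjusted p under 0.05, 1 was higher and 1 lower, against 11.1% and 8.34% of all genes. With both libraries of replicate 2 left out, 0 endothelial markers rose and 4 fell, against 20.4% and 19.2% of all genes.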

Additional observations from a re-analysis of the deposited data

How the results depend on the processing

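Counts of called genes depended on the pairing more than on scaling or filters. In tumor cells 78 genes were higher and 32 lower in reporter-positive cells without the block, and 1450 and 999 with the replicate block; DESeq2 gave 707 and 451, DESeq2 with the block 1043 and 644, and no filter on low counts 173 higher. Leaving out replicate 2 gave 2782 and 2619 without and 2927 and 2802 with the block, and the blocked fit gave 1055 and 498 without replicate 1 and 803 and 340 without replicate 3. Leaving out single libraries gave 0 to 391 higher, 0 to 230 lower and 0 to 1 of the 10 genes. Of those genes 3 were called without replicate 2, with or without the block, and 2 in the blocked fit without replicate 1.

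In macrophages 0 genes were called without the block and 1618 higher and 1524 lower with it; DESeq2 gave 662 and 609, DESeq2 with the block 1447 and 1363, and no filter 292 and 331. The blocked fit gave 626 and 691 without replicate 1, 1298 and 1374 without replicate 2, and 1743 and 1606 without replicate 3. Single libraries left out gave 0 to 0 higher, 0 to 2 lower and 0 to 0 of the 10 genes. Of those genes 4 were called with the block, 1 with DESeq2, 4 with both (Vim in place of Snai2), and 1, 3 and 4 in the blocked fit without replicates 1, 2 and 3.

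Log2 differences that changed sign, none of them called, were in tumor cells Snai1 without replicate 2 (-0.058, and -0.036 blocked) and Twist1 without it (-0.10 in both fits). With single libraries left out they were Twist1 (-0.051 to 0.30), Zeb2 (-0.20 to 1.30) and Cdh3 (-0.069 to 0.0195) in tumor cells and Cdh3 (-1.41 to 0.22) and Prrx1 (-0.21 to 0.69) in macrophages. The cause was not tested. Between tumor cells and macrophages the number of the 10 genes called was 7 to 8 under all alternatives, and the ratio of Cdh3 to Cdh1 kept its sign in each. Among the 10 genes the block changed no edgeR call other than those given with the results. Under 50 counts in some library lay behind all members but Vim, Snai2, Twist1 and Cdh3 in tumor cells and all but Vim, Zeb1 and Zeb2 in macrophages.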
